A study of Homo sapiens with 5 samples.

Results

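RNA polymerase II and its general transcription factors were followed as a set of genes in HUDEP-2 cells, by the positions of start sites called from nascent RNA. The set holds the protein-coding RefSeq genes whose symbols begin with POLR2, GTF2 or TAF and a number, together with TBP, ERCC2, ERCC3, CDK7, CCNH and MNAT1. This rule gave 77 genes. One of them, GTF2H2C_2, has coordinates on an alternative scaffold only and was not analysed here, which left 76 of the 19839 protein-coding genes of chromosomes 1 to 22 and X. The prefix also brings in genes that are not general factors of polymerase II. These are the TAF genes of the polymerase I factor SL1, TAFs of other complexes, the TFII-I family and 13 TAF11-like copies on chromosome 5. They are listed as separate roles below but stay in the pooled counts unless stated.

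HUDEP-2 is an immortalised line of human erythroid progenitors. PRO-seq, a nuclear run-on assay that labels RNA as polymerase extends it, was applied to 2 wild-type libraries and to 3 libraries of edited cells. Each edited library came from its own single-cell clone, made with the guide sg1617, which cuts the erythroid enhancer of BCL11A. The first clone had gained 1 bp there, the second had lost 13 bp and the last had lost 15 bp, so every edit was represented by 1 clone. The start sites were deposited as 2 lists for the series as a whole, with 14124 forward and 14159 reverse calls. They came from 1 alignment whose name carries no edit, so neither a difference between the clones and the wild type nor a spread between replicates can be measured for any gene below. Which of the libraries entered that alignment is not known. A call has a position and a strand but no strength: the score was 0 throughout, and the number of reads behind it is unknown. Of 10 erythroid marker genes 10 had a call at their start, against 0 of 16 markers of lymphoid, myeloid, neuronal and liver cells, which at 3 counts allows up to 18.8%.

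Polymerase II cannot find a promoter unaided. TFIID, built from the TATA-binding protein TBP and its associated factors, the TAFs, recognises the core promoter, TFIIA and TFIIB secure it, TFIIF brings in the polymerase, and TFIIE and TFIIH follow and open the DNA. All dividing cells use this machinery, while some paralogs of its subunits are known mainly from germ cells.

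The promoters of called and uncalled members are shown first, because the placement of the calls in them is the main measurement. Each sequence is the gene's sense strand from RefSeq on GRCh38.p14, from 200 bases before the annotated start to 20 bases from it, read from a table that gave a promoter and a strand for 63 of the 76 genes. In called genes, the capitals near the right-hand end mark the called base and the base that follows it, and capitals further left, where present, mark the same pair for a call on the opposite strand, which is read from right to left. From each role the sequence shown is that of the member with the most own-strand calls, and at equal numbers the smallest offset, among those with a divergent call, a promoter call within 10 bp of the start and a listed promoter.
POLR2A, chr17:7484166-7484385, plus strand: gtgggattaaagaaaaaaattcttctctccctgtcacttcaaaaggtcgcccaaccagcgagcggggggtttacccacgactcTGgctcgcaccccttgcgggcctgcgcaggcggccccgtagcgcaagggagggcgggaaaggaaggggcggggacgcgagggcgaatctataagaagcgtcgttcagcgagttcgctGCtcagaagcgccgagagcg
GTF2B, chr1:88891548-88891767, minus strand: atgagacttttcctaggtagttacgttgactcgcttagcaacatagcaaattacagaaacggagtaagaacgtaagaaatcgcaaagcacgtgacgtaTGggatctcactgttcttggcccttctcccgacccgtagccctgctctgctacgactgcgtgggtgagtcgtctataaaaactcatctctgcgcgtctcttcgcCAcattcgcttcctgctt
TAF11, chr6:34888023-34888242, minus strand: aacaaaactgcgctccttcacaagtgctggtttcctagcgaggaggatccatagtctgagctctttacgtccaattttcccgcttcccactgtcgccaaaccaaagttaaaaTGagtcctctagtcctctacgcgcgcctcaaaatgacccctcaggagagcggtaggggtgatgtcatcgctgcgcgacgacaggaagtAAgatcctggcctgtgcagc
TAF9B, chrX:78139631-78139850, minus strand: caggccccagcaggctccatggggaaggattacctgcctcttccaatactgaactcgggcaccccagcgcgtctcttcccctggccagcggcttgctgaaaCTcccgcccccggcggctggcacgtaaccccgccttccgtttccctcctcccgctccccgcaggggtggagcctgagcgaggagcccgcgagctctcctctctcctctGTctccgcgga
TAF1D, chr11:93741476-93741695, minus strand: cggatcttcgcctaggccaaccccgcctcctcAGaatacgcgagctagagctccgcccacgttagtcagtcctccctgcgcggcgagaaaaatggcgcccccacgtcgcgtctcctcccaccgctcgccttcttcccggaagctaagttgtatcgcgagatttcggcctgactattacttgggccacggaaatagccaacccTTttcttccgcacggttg
GTF2E1, chr3:120742544-120742763, plus strand: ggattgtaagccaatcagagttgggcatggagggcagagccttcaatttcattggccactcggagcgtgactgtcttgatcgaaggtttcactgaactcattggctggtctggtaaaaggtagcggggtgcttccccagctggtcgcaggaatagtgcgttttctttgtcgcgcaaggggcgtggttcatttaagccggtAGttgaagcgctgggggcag
GTF2H1, chr11:18322367-18322586, plus strand: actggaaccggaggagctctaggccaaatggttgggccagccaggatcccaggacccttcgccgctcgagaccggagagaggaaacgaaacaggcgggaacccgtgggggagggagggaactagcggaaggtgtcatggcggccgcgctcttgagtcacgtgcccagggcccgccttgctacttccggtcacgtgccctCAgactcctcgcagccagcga
In POLR2A, GTF2B, TAF11, TAF9B and TAF1D the pair of oppositely directed calls lies within the stretch shown, and in GTF2E1 and GTF2H1 the divergent call lies further upstream.

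Uncalled members of the same complexes are shown for comparison, with the annotated start in capitals.
POLR2J2, chr7:102671644-102671863, minus strand: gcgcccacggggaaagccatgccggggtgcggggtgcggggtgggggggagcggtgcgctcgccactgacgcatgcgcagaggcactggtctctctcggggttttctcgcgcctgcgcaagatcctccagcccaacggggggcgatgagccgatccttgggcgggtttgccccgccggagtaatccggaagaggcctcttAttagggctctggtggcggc
TAF6L, chr11:62771196-62771415, plus strand: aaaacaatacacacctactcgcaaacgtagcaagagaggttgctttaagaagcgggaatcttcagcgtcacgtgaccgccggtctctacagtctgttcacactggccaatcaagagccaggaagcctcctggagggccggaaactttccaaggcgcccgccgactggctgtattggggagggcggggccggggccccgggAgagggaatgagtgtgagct
TAF1A, chr1:222589914-222590133, minus strand: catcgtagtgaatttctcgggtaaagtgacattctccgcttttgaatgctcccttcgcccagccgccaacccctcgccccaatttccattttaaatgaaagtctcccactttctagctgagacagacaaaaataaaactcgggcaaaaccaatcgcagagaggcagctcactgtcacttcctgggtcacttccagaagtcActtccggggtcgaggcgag
GTF2H2, chr5:71067657-71067876, minus strand: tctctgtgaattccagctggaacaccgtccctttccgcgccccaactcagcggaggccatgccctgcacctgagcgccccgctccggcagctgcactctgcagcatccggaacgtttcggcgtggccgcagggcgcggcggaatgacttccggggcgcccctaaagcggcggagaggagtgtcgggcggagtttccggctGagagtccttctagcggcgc

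A gene counted as called when a call on its own strand lay within 500 bp of an annotated start, and such a call is named a promoter call. Of the 76 genes, 51 were called (67.1%, Wilson 95% interval 55.9 to 76.6%), beside 45.8% of all 19839 protein-coding genes. Counting every call in the gene and its flanks of 500 bp on either strand, 54 of 76 members (71.1%) held one, beside 54.1% of all protein-coding genes. Without the flanks 39 of 76 members (51.3%) held one, and all protein-coding genes were not counted that way. The interval covers counting only, since the genes are neither a random draw nor independent. All 13 TAF11-like copies were uncalled, and without them 51 of 63 genes were called (81.0%). TFIID, TFIIB, TFIIE and TFIIF were called in full, whereas TFIIH (8 of 11 genes), SL1 (3 of 4), TFIIA (2 of 3) and the polymerase (13 of 15) were not. Among the 12 other uncalled genes were the subunit genes GTF2H4 of TFIIH, TAF1A of SL1 and TAF6L of SAGA. The rest were GTF2H2 of TFIIH, which has a near-identical copy, and copies, germ-cell paralogs and members of the TFII-I family. No test was made of the members against other genes.

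**Figure D1:**
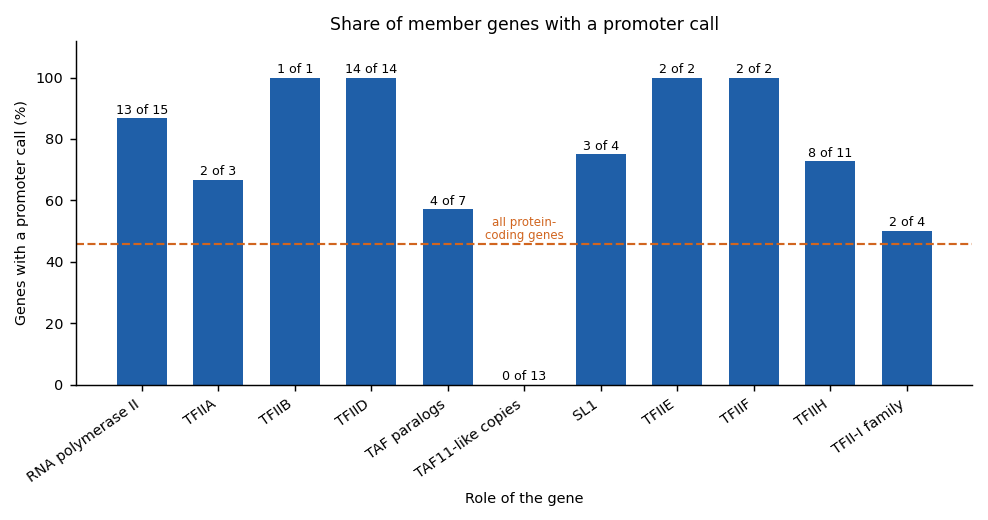
Percentage of genes with a promoter call in each role, with the number called and the number of genes above each bar; the dashed line is the share of all protein-coding genes (45.8%). TFIID (14 of 14), TFIIB, TFIIE and TFIIF stand at 100%, RNA polymerase II at 86.7% and the TAF11-like copies at 0. The calls of TAF9, a TFIID gene, also lie near starts of the gene AK6.

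Among the genes of the polymerase itself 13 of 15 were called. POLR2A (gene ID 5430), which encodes the largest subunit with the repeated tail that is phosphorylated during transcription, was called at its annotated base, 7484366 on chromosome 17. POLR2B, the second-largest subunit, was also called at an offset of 0 bp, at 56978896 on chromosome 4. The pair POLR2C and POLR2J, which form the scaffold on which the core assembles, were called at 1 and 0 bp. All these calls thus lay within 1 base of the annotation.

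POLR2D and POLR2G encode the stalk that protrudes from the enzyme. POLR2D was called 31 bp downstream of its start and POLR2G at 0 bp. The subunits that are shared with polymerases I and III were called as well, POLR2E at 39 bp, POLR2F at 0 bp, POLR2H at 10 bp, POLR2K at 2 bp and POLR2L at -1 bp, where a negative offset is upstream. POLR2I, a zinc-binding subunit that contributes to fidelity, had its call at -16 bp, and POLR2M, which encodes a regulator bound to the enzyme rather than a core subunit, at 67 bp, the largest offset of this group.

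The uncalled genes of this group were POLR2J2 and POLR2J3, copies of POLR2J on chromosome 7. Neither gene held any call, nor did the 500 bp around it. The nearest call on the matching strand was that of POLR2J itself, 192741 bp from the start of POLR2J2 and 93661 bp from the end of POLR2J3 that would be its start. Because reads that match more than 1 copy have no single origin, the lack of a call here is uncertain. The call at POLR2J carries the same limit.

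TFIID was complete, with a call at each of its 14 genes, although the calls of TAF9 also lie near starts of the gene AK6 and cannot be given to TAF9 alone. TBP, which bends the DNA at the TATA box, was called at -1 bp (170554368 on chromosome 6). TAF1, the large scaffold with bromodomains, was called at 2 bp, TAF2, which contacts the initiator, at 7 bp, and TAF3, which reads a histone mark of active promoters, at -1 bp. These subunits touch the DNA or chromatin, and their calls lay within 7 bp of the annotation.

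The histone-fold subunits of TFIID work in pairs. TAF4 and TAF12 were called at 25 and -11 bp, TAF6 and TAF9 at -1 and 0 bp, TAF8 and TAF10 at 35 and 2 bp, and TAF11 and TAF13 both at 0 bp. In each of these pairs both partners were called, with the limit given above for TAF9. TAF5, the WD-repeat scaffold, was called at 4 bp and TAF7, which restrains TAF1, at -1 bp. The offsets of the 14 genes ran from -11 to 35 bp with a median of 0 bp.

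Paralogs of the TAFs and TAFs of other complexes were called in 4 of 7 cases. TAF15, an RNA-binding protein, had its call at -1 bp, TAF9B, a close relative of TAF9, at 9 bp, TAF4B, a paralog known for its role in germ cells, at 35 bp, and TAF5L, a subunit of the SAGA coactivator, at 65 bp. TAF1L and TAF7L, known from testis, had 0 calls, the flanks of 500 bp included. TAF6L, the SAGA counterpart of TAF6, was not called either, although 3 calls lay in or near it. A reverse call 180 bp inside the gene was antisense to its start, and the other calls lay at its far end, the forward call 1 bp from the start of the neighbouring gene TMEM179B.

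The TAF11-like genes form an array on chromosome 5 between 17498231 and 17635053. Of the 13 copies 0 were called, which at 3 counts allows a share of up to 23.1%, and 0 had a call on either strand within 500 bp. The nearest call on the matching strand was over 1 Mb away from the start of every copy, at -1032366 bp for the closest, TAF11L2. Their 13 promoter windows of 300 bases held 8 different sequences, with 5 copies sharing the same one. Reads from within those 5 windows could not be told apart. Over all pairs of windows the longest shared run was at least 8 bases, with a median of 58. With TAF11 itself, the window of TAF11L2 shared no run longer than 9 bases.

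TFIIA had 2 of 3 genes called. GTF2A1, which encodes the precursor of its large subunits, was called at 16 bp and GTF2A2, the small subunit, at -1 bp. GTF2A1L, a germ-cell paralog of GTF2A1, had 0 calls, the nearest on its strand lying at -177048 bp. TFIIB has a single gene, GTF2B, which was called at 2 bp (88891565 on chromosome 1).

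TFIIE and TFIIF, each made from 2 genes, were complete. GTF2E1 and GTF2E2, the subunits that recruit TFIIH, were called at 0 and 3 bp. GTF2F1 and GTF2F2, the subunits that escort the polymerase to the promoter, were called at 0 and -5 bp. GTF2F1 had a further call on the same strand at -259 bp.

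TFIIH, which opens the promoter and phosphorylates the polymerase and which also repairs DNA, had 8 of 11 genes called. The helicase and translocase subunits ERCC2 and ERCC3 were called at -12 and -1 bp. In the core, GTF2H1 was called at -1 bp, GTF2H3 at -1 bp and GTF2H5 at 12 bp. In the kinase module, CDK7, the kinase, was called 30 bp upstream of the nearer of its annotated starts, CCNH, its cyclin, at 65 bp and MNAT1, the assembly factor, at -1 bp.

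The uncalled TFIIH genes were GTF2H2, its copy GTF2H2C and GTF2H4. GTF2H2 and GTF2H2C lie 1.44 Mb apart in a duplicated part of chromosome 5, and their promoter windows shared an unbroken run of 180 bases. As at POLR2J2, the lack of a call at these copies is therefore uncertain. GTF2H2 had 0 calls. At GTF2H2C a single reverse call lay at -148 bp, in the antisense position, with 0 calls on the gene's own strand. GTF2H4, at chr6:30908207-30914106, likewise had a reverse call at -284 bp and none on its own strand at the start. Its other calls, 1 on each strand, lay beyond its far end, and the forward call was 109 bp from the start of VARS2.

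The factor SL1, which places polymerase I on ribosomal DNA, had 3 of 4 TAFs called. TAF1B was called at 19 bp, TAF1C at 12 bp and TAF1D at 2 bp. TAF1A had 0 calls, its flanks of 500 bp included, and the nearest call on its strand was at -54210 bp.

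The TFII-I family are DNA-binding proteins that are named like the general factors but not counted among them here. GTF2I was called at 154 bp, the farthest of all 51 genes from its annotated start, and GTF2IRD2B at 42 bp. GTF2IRD1 and GTF2IRD2 had 0 calls. GTF2I, GTF2IRD2 and GTF2IRD2B have near-identical copies on chromosome 7, so their values are uncertain.

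Related genes outside the set were largely called too. Of 8 polymerase I subunit genes 8 were called, of 10 polymerase III subunit genes 9, of 9 genes of TFIIIB and TFIIIC 9, and of 15 assembly, TBP-related and elongation factors 13. The uncalled genes were POLR3G, TBPL2 and TCEA2. TBPL2, a TBP relative known from germ cells, had 0 calls on either strand, whereas POLR3G had 3 and TCEA2 had 1 in the gene or near it.

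Calls were placed close to the annotated starts. In the 51 called genes the offset of the nearest call ran from -30 to 154 bp, with a median of 0 bp and quartiles at -1 and 12 bp. In all 9088 called protein-coding genes the median was 1 bp and the quartiles -1 and 19 bp. Of the members 33 (64.7%) lay within 10 bp, beside 55.3% of all called genes, and 47 (92.2%) within 50 bp, beside 86.9%. The farthest members inside the window of 500 bp were GTF2I at 154 bp and POLR2M at 67 bp, and the nearest uncalled member outside it was GTF2H4, whose first own-strand call lay 6140 bp from its start.

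The promoter sequences allowed the base at each call to be read. Of 39 calls in the members' windows, 21 were on a C (53.8%) and 2 on a T, and the next base downstream was an A in 22 (56.4%). Over 7168 calls in all protein-coding windows the called base was C in 49.1% and T in 3.85%, and the next base A in 49.9%. Start sites commonly begin with a purine that follows a pyrimidine. That order was found at the called base and the base after it in 43.8% of all calls, and at the base before it and the called base in 32.1%. The pair CA is visible in capitals at GTF2B and GTF2H1. In POLR2A, TAF11, TAF9B and GTF2E1 a T stands before a called purine instead, and TAF1D shows neither order. Offsets are given as deposited. If starts were counted from the base after the call, each would be 1 bp higher, and the commonest offset of all called genes, -1 bp (19.5%, and 21.6% of the members), would be 0.

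**Figure D2:**
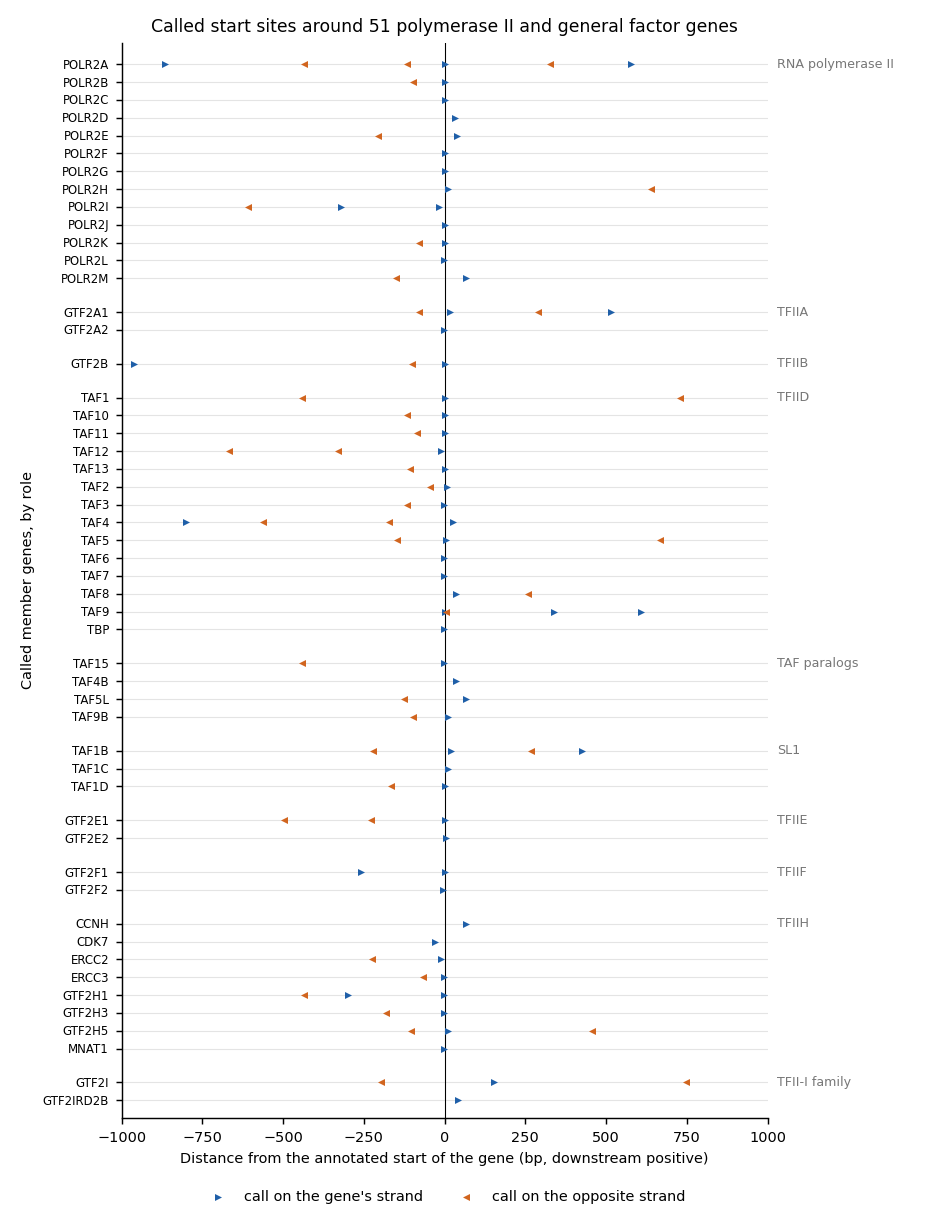
Every call within 1000 bp of the called start of the 51 called genes, placed by its distance from the annotated start in bp with downstream positive; blue triangles are calls on the gene's strand and orange triangles calls on the opposite strand, and genes are grouped by role. Own-strand calls gather at 0, and opposite-strand calls lie mostly upstream, 30 of them within 500 bp.

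Divergent calls, on the opposite strand 0 to 1000 bp upstream of the promoter call, accompanied 29 of the 51 genes (56.9%, Wilson 95% interval 43.3 to 69.5%), beside 66.5% of all called genes. The distance between the calls ran from 52 bp at TAF2 to 593 bp at POLR2I with a median of 169 bp, beside 177 bp over all called genes. At POLR2I and GTF2H1 a further own-strand call, at -321 and -299 bp, lay between the paired calls. Partners were sought only for the call nearest to a start, so the divergent calls of the second starts of POLR2H (256 bp) and TAF9 (335 bp) are not among the 29. That of TAF9 is the call of RAD17 described below. By role, 9 of the 14 TFIID genes had such a partner, 6 of the 13 called polymerase genes, 5 of the 8 called TFIIH genes and neither TFIIF gene. Within the polymerase, POLR2B (97 bp), POLR2K (80 bp) and POLR2A (116 bp) had close partners. TBP, TAF6, TAF7, POLR2C, POLR2G, POLR2J and MNAT1 were among the 22 members with no partner, although their calls lay within 1 bp of the start.

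**Figure D3:**
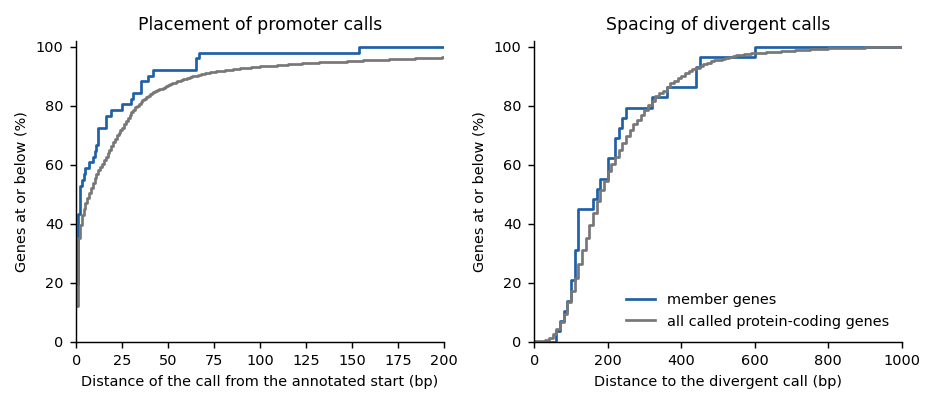
Cumulative percentage of genes by the distance in bp of the promoter call from the annotated start (left) and by the distance to the divergent call (right), for member genes (blue) and all called protein-coding genes (grey). The left-hand curve of the members reaches 64.7% at 10 bp, against 55.3% for all called genes, and the medians on the right are 169 and 177 bp.

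Several of these partners were the starts of other genes. In 9 of the 29 genes the partner call lay within 500 bp of the start of another protein-coding gene (31.0%, beside 28.4% of all called genes with a partner), in 5 that of another kind of gene (17.2%, beside 17.0%), and in 15 no start was annotated there (51.7%, beside 54.6%). POLR2A faced ZBTB4, whose call was 1 bp from its own annotated start. POLR2I faced TBCB, POLR2K faced FBXO43, GTF2E1 faced RABL3 and TAF1D faced C11orf54. These are head-to-head gene pairs that share the sequence between the calls.

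In TFIIH such pairs made up 3 of the 5 partners. GTF2H1 faced HPS5 across 434 bp from its call nearest to the start, with its further call at -299 bp lying between. GTF2H3 faced EIF2B1, a subunit gene of a translation factor, across 180 bp, and GTF2H5 faced SERAC1 across 115 bp. TAF5L faced URB2 across 192 bp. TAF12 faced RNU11, the gene of the U11 small nuclear RNA, called at its exact annotated base 320 bp away. TAF9 and RAD17, a checkpoint gene, are a special case: their calls overlapped, with the forward call of RAD17 lying 4 bp inside TAF9, so it was not counted as a divergent partner. In POLR2F, POLR2H and POLR2L the opposite gene's start lay 30, 105 and 323 bp away (C22orf23, CLCN2 and TSPAN4) and was not called.

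Alternative starts were called in some members. Of 13 members with more than 1 annotated start, 5 had separate calls at different starts (38.5%), beside 11.8% of 5425 such genes overall. POLR2H was called at 10 bp from the start at 184361710 on chromosome 3 and at 47 bp from the start at 184363361. TAF12 was called at -11 bp from 28648269 and at -18 bp from 28643067 on chromosome 1, with a divergent call at each. TAF6 was called at -1 bp from 100127171 and at 8 bp from 100119357 on chromosome 7. GTF2A1 and TAF9 each had separate calls at 2 neighbouring starts. Those of TAF9 are also starts of the gene AK6, so the calls there cannot be given to TAF9 alone. In TAF1 a second start at 71492450 was not called, nor was a further start of TAF6 at 100119858. The share overall depends on how far apart the annotated starts lie, which was not matched here.

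Runs of calls were rare. Counting own-strand calls from 500 bp upstream to the far end of the gene, 40 of the 51 called members had 1 and 11 had 2 or more (21.6%, beside 27.7% of all called genes). The count was 6 (11.8%) with calls within 500 bp merged, and also 6 with calls inside the gene only. All called genes were not counted under these settings, so 11.8% has no share to stand beside. TAF1D had the most, with 4. Of its further calls, those at 93731572 and 93733299 lay 1 bp from the annotated starts of the small nucleolar RNAs SNORD6 and SNORD5, and that at 93732405 lay 94 bp from the start of SNORA8, all of which lie inside TAF1D. GTF2A1 and TAF9 had 3 each. Both starts of TAF9 are also starts of the gene AK6, and the 3 calls of TAF9 cannot be given to TAF9 alone. POLR2A had a further call 578 bp downstream of its start, and opposite-strand calls at 327 and -434 bp beside its divergent partner. MNAT1, at 235205 bp the longest called member, had no call in its body beyond that at the start, nor had TAF3 (198127 bp) and GTF2F2 (164384 bp). TAF4B (165241 bp) had an opposite-strand call at 29430 bp inside the gene.

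The promoters were compared by composition, in 1 window of 300 bases per gene, 250 before the start and 50 from it. For TAF6 this window lay at the start at 100119858, which was not called, and for TAF12 at the called start at 28643067, not the one nearest to its main call; in the other called members it lay at the start nearest to the call. In the 41 called members with a sequence the ratio of observed to expected CpG had a median of 0.961, beside 0.877 in all called genes. In the 9 uncalled members other than the TAF11-like copies it was 0.852, beside 0.490 in all uncalled genes, and in the copies 0.584. Uncalled members such as POLR2J2 (0.828), TAF6L (0.911) and TAF1A (0.798) thus lay nearer to called than to uncalled genes in this measure. The median GC content was 59.7% in called members and 66.0% in all called genes.

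Motifs were searched as exact letters on both strands of the same windows. The letters CCGGAA, the core recognised by ETS factors, occurred in 24 of the 41 called members (58.5%), beside 36.5% of all called, 10.9% of all uncalled and 23.4% of all protein-coding genes. Uncalled members held it too, 5 of 9 (55.6%) and, among the TAF11-like copies, which share sequence, 9 of 13 (69.2%). In the 100 bases before the start it occurred in 15 of the 41 (36.6%), beside 20.8% of all called genes. The GC box GGGCGG occurred in 24 (58.5%, beside 75.6%) and CCAAT in 12 (29.3%, beside 39.0%). In the 100 bases before the start the GC box occurred in 16 (39.0%, beside 56.1%) and CCAAT in 3 (7.32%, beside 24.5%). The E-box CACGTG occurred in 7 (17.1%, beside 11.5%), among them GTF2H1, which held it at -44 and -11 bp. A match is a description of the letters and not a bound site.

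The rarer motifs were in few members. TATAAA, the element bound by TBP, occurred in 3 of the 41 (7.32%, beside 4.54% of all called genes). Its share was 14.1% in all uncalled and 9.43% in all protein-coding genes. In GTF2B alone was it placed upstream near the start, its first base at -29 bp. It can be read in the GTF2B sequence printed above. The cyclic AMP element TGACGTCA occurred in TAF10, at -48 bp, and TAF4B (4.88%, beside 3.90%), the NRF1 motif in POLR2F (2.44%, beside 3.16%) and the YY1 motif in TAF5 (beside 2.81%). AGATAA, recognised by GATA factors, occurred in GTF2F1, MNAT1 and POLR2F (7.32%, beside 4.10%). Its share was 10.6% in all uncalled and 7.45% in all protein-coding genes, so the members were near the latter. No motif contains another in full, though neighbouring matches can share end letters, and a window can hold several.

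**Figure D4:**
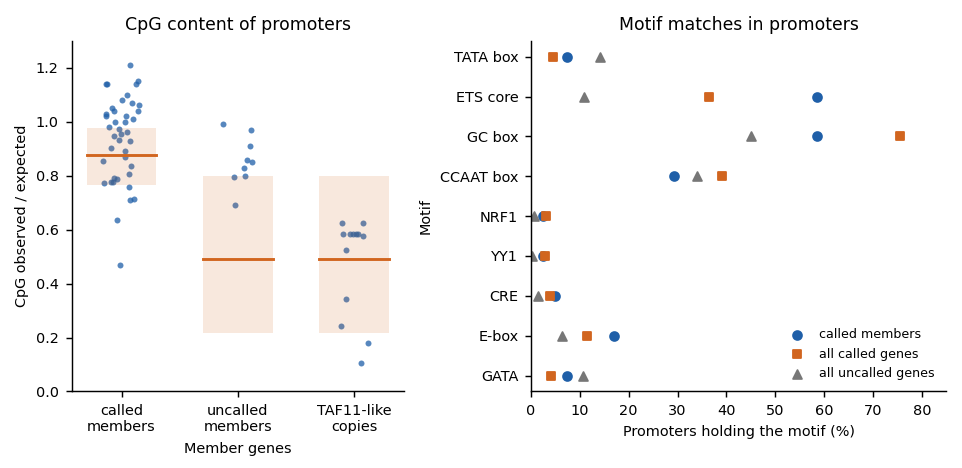
Left, ratio of observed to expected CpG in the promoter window of each member gene (blue points, spread sideways to be seen), with the median and quartiles of all called (first column) or all uncalled protein-coding genes (other columns) in orange. Right, percentage of promoters that hold each motif in called members, all called and all uncalled protein-coding genes; the ETS core stands at 58.5, 36.5 and 10.9%.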

How the data were processed

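PRO-seq start sites of the series were analysed as 2 deposited call lists. Per the file headers, the authors called them with TSScall on 1 sorted, de-duplicated alignment. Per the submitters' processing notes, the build was hg38 and the tools Picard, deepTools 3.5.4, SAMtools 1.17 and BWA 0.7.16a. The version and settings of TSScall are not stated in these sources. The score deposited by the authors was 0 in every call, so depth and its error are unknown and the position, the end of a 1-base interval, was the measurement.

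Gene bounds came from RefSeq GRCh38.p14, and 135 protein-coding rows with scaffold coordinates were left out. Strand and starts came from the RefSeq promoter table for 15812 protein-coding genes, with the outer end of the gene added. For others, 13 members included, a forward call at the left or a reverse call at the right end counted. All 965 overlapping windows of opposite strands matched as reverse complements. Every member could be named, of related genes the uncalled ones, and neighbours that share a divergent call; TMEM179B, VARS2, RAD17, AK6 and the snoRNAs were chosen after their values were seen. The members and lists were chosen with earlier results of these data known. The groups by role were planned; the TAF11-like copies were set apart after the files were read. Nothing was tested for significance. Scripts were tested on simulated calls. The software was matplotlib 3.10.9, scipy 1.17.1, pandas 2.3.3 and numpy 2.4.6 under Python 3.11.15.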

Additional observations from a re-analysis of the deposited data

How the results depend on the processing

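Of 23 alternatives, 21 left the result close to its main value. Close meant a count within 1.5 times or a median within the 95% binomial interval of 0 to 3 bp. This rule is wide, and it compared counts and not shares. Of the alternatives, 5 were chosen after seeing the data. The exceptions concern the 11 called members with 2 or more own-strand calls: there were 6 with calls within 500 bp merged and 6 with calls inside the gene only. Called members numbered 50 with a window of 100 bp, without GTF2I, and 51 with 1000 bp. Ignoring the listed strand gave 53, adding GTF2H4 and TAF6L through calls at their far ends. Without near-identical copies 48 of 68 were called, and without the TAF11-like copies as well 48 of 55 (87.3%), beside 67.1% of all members. Leaving out only the uncalled TAF11-like copies could not change the count of 51. Moving all calls by 1 base could hardly take the median out of its interval. Members with any call fell from 54 to 39 of 76 (51.3%) when the flanks were left out. Divergent partners numbered 26 to 31. The share of all protein-coding genes lay between 42.5 and 46.9%. The median offset lay between 0 and 2 bp. No paired analysis was possible because the lists have no column per library, and leaving out a library was not possible for the same reason. A missing call shows only that none was made at an unknown depth.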
